A study of Mus musculus with 4 samples.

Results

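The 6 genes of the platelet-derived growth factor (PDGF) system and 4 genes that mark cardiac fibroblasts were followed in reprogramming mouse cells with and without a knockdown of Scd1. The 10 genes were taken by symbol, as the receptors Pdgfra and Pdgfrb, the ligands Pdgfa, Pdgfb, Pdgfc and Pdgfd, and the identity genes Tcf21, Ddr2, Thy1 and S100a4. Each symbol stood in 1 of 56691 rows of the deposited table, and all 10 were among the 16234 genes tested. The cells were wild-type primary cardiac fibroblasts from hearts at postnatal days P1 to P3 that received Mef2c, Gata4 and Tbx5 (MGT), factors that turn fibroblasts towards induced cardiomyocyte-like cells. MGT+shNT cells (2 libraries) also carried a non-targeting short hairpin RNA, and MGT+shScd1 cells (2 libraries) a hairpin against Scd1, the gene of stearoyl-CoA desaturase. Both groups were collected at day 7, and the series asks how losing Scd1 changes the reprogramming cells. Fibroblasts without MGT were not analysed here, so the levels below are those of cells already in reprogramming.

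PDGFs are secreted dimers that bind a pair of receptor tyrosine kinases. PDGF-A acts through the alpha receptor, PDGF-B through both receptors, PDGF-C mainly through the alpha receptor and PDGF-D mainly through the beta receptor. In the heart the alpha receptor marks resident fibroblasts, while the beta receptor is known from pericytes and other mural cells as well as from fibroblasts. Tcf21 encodes a transcription factor that the epicardium needs to give rise to cardiac fibroblasts, Ddr2 a receptor kinase for fibrillar collagen, Thy1 a cell surface glycoprotein and S100a4 a calcium-binding protein also called fibroblast-specific protein, although macrophages express it too.

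Pdgfrb fell to 0.362 of its MGT+shNT level while Pdgfra did not pass the test, so the make-up of the receptors differed between the groups. Among the ligands Pdgfc rose 1.72-fold and Pdgfa fell to 0.718 of its level, with summed ligand levels close to each other. All 4 fibroblast identity genes fell, S100a4 and Tcf21 by more than Ddr2 and Thy1. In all, 1 of the 10 genes rose, 6 fell and 3 did not pass, at an adjusted p below 0.05. Of all genes tested, 13.1% rose and 16.3% fell, 29.3% together. The falls numbered 7 without MGT+shNT replicate 2 and with no filter on low counts, and 5 with library totals, on both FPKM scales and without MGT+shScd1 replicate 2, where the Thy1 call was lost. In CPM the groups did not overlap for 9 of the 10 genes, 2 higher and 7 lower, against 64.3% of all genes tested (32% higher and 32.3% lower). The 7 include Pdgfra, by 150.99 CPM in MGT+shNT replicate 2 against 150.51 CPM in MGT+shScd1 replicate 2. In FPKM, which carries no TMM factors, the Pdgfra libraries interleaved. The median log2 fold change was -0.46 over the 10 genes and 9.4e-05 over all genes tested. The library scaling moved the balance of calls over all genes: 44.6% of calls were higher with the TMM scaling used here and 63.2% with library totals alone.

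**Figure D1:**
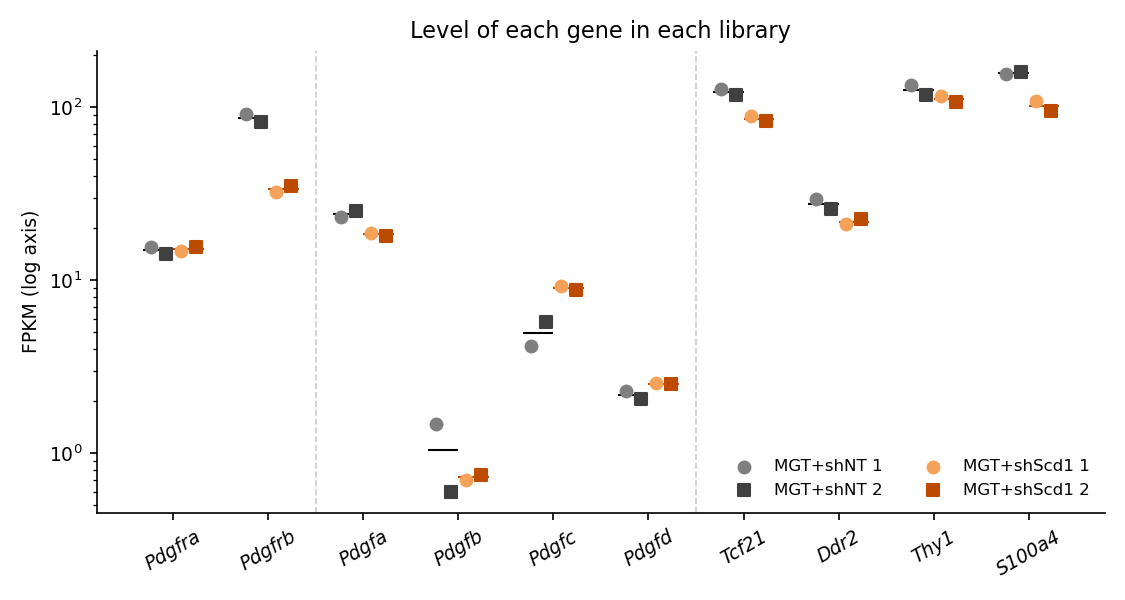
FPKM (level per exon length and library size, log axis) of each of the 10 genes in each of the 4 libraries, with points for libraries and short lines for group means (n = 2 each). Pdgfrb, Tcf21 and S100a4 lie lower in both MGT+shScd1 libraries, Pdgfc lies higher, and Pdgfb differs most within MGT+shNT.

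Total counts ran from 15135227 to 20894972 per library. Scd1, the target of the hairpin, had 17.0 and 12.3 FPKM in MGT+shNT and 1.40 and 1.70 FPKM in MGT+shScd1 (log2 fold change -3.34, SE 0.14, adjusted p = 4.31e-09). The labels name polyA RNA while the protocol describes depletion of ribosomal RNA, so what the ribosomal share measures is uncertain. MGT+shNT replicate 2 stood apart in it, since Rn18s-rs5 took 3.32% of its counts and 0.129% to 0.199% of the counts of the other libraries. The labelled cell type was checked against its markers: Col1a1 lay between 804 and 1114 FPKM, Col1a2 between 174 and 347 FPKM and Dcn between 39.8 and 53.1 FPKM, so fibroblast transcripts were abundant in all 4 libraries. Myh6, a cardiomyocyte myosin, lay between 29.7 and 88.1 FPKM and Tnnt2 between 319 and 407 FPKM. In such bulk RNA, fewer cells of a type and less RNA per cell cannot be told apart.

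Per length of transcript, S100a4, Thy1 and Tcf21 were the most abundant of the 10, and Pdgfrb stood above the identity gene Ddr2 in both groups. In MGT+shNT, S100a4 led at 158 ± 3.17 FPKM (SD, n = 2 here and below), followed by Thy1 at 126 ± 12.8 FPKM, Tcf21 at 122 ± 6.23 FPKM and Pdgfrb at 87.3 ± 6.68 FPKM. Thy1 and Tcf21 did not differ beyond their spread there. Then came Ddr2 at 27.8 ± 2.65 FPKM, Pdgfa at 24.1 ± 1.46 FPKM and Pdgfra at 14.9 ± 0.976 FPKM. Pdgfc at 4.97 ± 1.10 FPKM, Pdgfd at 2.18 ± 0.148 FPKM and Pdgfb at 1.04 ± 0.622 FPKM closed the order, and the ranges of the last pair did not overlap. In MGT+shScd1 the order was the same except that Thy1 (112 ± 5.78 FPKM) stood before S100a4 (102 ± 9.40 FPKM), and the libraries of these 2 genes overlapped. Against all genes tested, Tcf21, Thy1 and S100a4 stood between percentiles 97.3 and 98.9 of FPKM in both groups, and Pdgfb stood at percentile 24.8 in MGT+shNT.

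The beta receptor gene Pdgfrb (ENSMUSG00000024620, GRCm38 chromosome 18, 61045150 to 61085061, plus strand) had 92.0 and 82.5 FPKM in the MGT+shNT libraries and 32.4 and 35.2 FPKM in the MGT+shScd1 libraries. Both knockdown libraries lay far below both control libraries, with 10528 and 6843 counts against 3388 and 3601. Its log2 fold change, computed from counts with TMM scaling, was -1.46 (SE 0.07, adjusted p = 6.21e-09), which is a ratio of 0.362 with a 95% interval from 0.329 to 0.399. The absolute change was larger than that of 96.5% of all genes tested. Leaving out single libraries kept this value between -1.53 and -1.41.

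The alpha receptor gene Pdgfra (ENSMUSG00000029231, GRCm38 chromosome 5, 75152292 to 75198215, plus strand) had 15.6 and 14.2 FPKM in MGT+shNT and 14.7 and 15.5 FPKM in MGT+shScd1. The libraries of the groups interleaved on this scale. From counts, the log2 fold change was -0.08 (SE 0.06, adjusted p = 0.357), and its 95% interval ran from a ratio of 0.865 to 1.03. The sign turned to 0.02 with library totals and on both log2 FPKM scales, so no direction is given.

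Within each library the ratio of Pdgfra to Pdgfrb FPKM, which does not depend on library scaling, was 0.170 and 0.172 in MGT+shNT against 0.454 and 0.440 in MGT+shScd1. The mean log2 ratio was -2.55 ± 0.02 and -1.16 ± 0.03, a difference of 1.39, or 2.61-fold. That is many times the spread between replicates, but an exact two-sided permutation test of 2 against 2 libraries cannot go below p = 0.333, the value found. Pdgfrb made up 85.5% and 85.3% of the summed receptor FPKM in MGT+shNT against 68.8% and 69.4% in MGT+shScd1. The sum itself went from 102 ± 7.66 to 48.9 ± 2.57 FPKM.

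**Figure D2:**
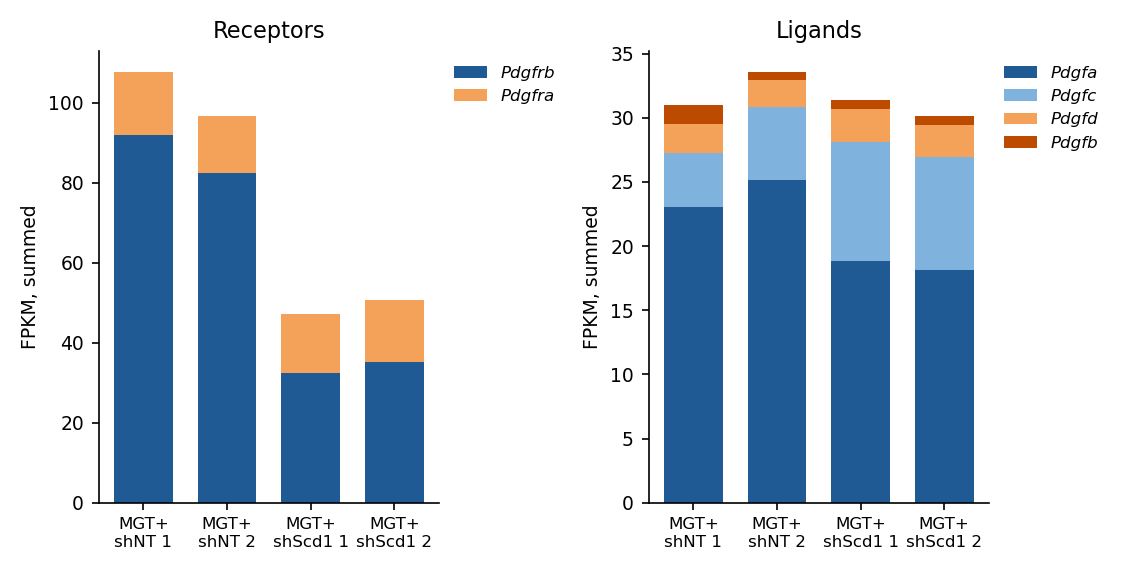
Summed FPKM of the 2 receptor genes (left) and the 4 ligand genes (right) in each library, as stacked bars from 0. The receptor sum is 97 to 108 FPKM in MGT+shNT and 47 to 51 FPKM in MGT+shScd1, while the ligand sum stays between 30 and 34 FPKM with a larger part from Pdgfc in MGT+shScd1.

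Both receptor genes lie beside relatives of the class III receptor kinases. Kit, the stem cell factor receptor, is the next protein-coding gene after Pdgfra, 376.7 kb away, followed by the VEGF receptor gene Kdr. Kit fell from 15.5 ± 1.88 to 10.8 ± 0.259 CPM (log2 fold change -0.51, SE 0.13, adjusted p = 0.0101), and this call was lost without MGT+shScd1 replicate 1 (adjusted p = 0.103) or 2 (adjusted p = 0.0633) and on both FPKM scales (adjusted p = 0.115 and 0.138). Kdr, at -0.17, missed the threshold (adjusted p = 0.279). Csf1r, the macrophage colony-stimulating factor receptor, starts 15.5 kb after Pdgfrb. It had 512 and 116 counts in the MGT+shNT libraries against 186 and 205 in MGT+shScd1, so the groups overlapped (log2 fold change -0.76, SE 0.33, adjusted p = 0.103). Without MGT+shNT replicate 2 the Csf1r value was -1.31 and called, and without replicate 1 it was 0.31.

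The genes whose log2 CPM (counts scaled to library size with TMM factors) over the 4 libraries lay nearest to that of Pdgfrb, among 9782 genes with a mean of at least 10 CPM, were Gpnmb, Igfbp5 and Mgp, at a root mean square difference of 0.0518, 0.0582 and 0.0618 log2 units. Gpnmb, a membrane glycoprotein of lysosome-rich cells, had 908 and 843 CPM in MGT+shNT and 331 and 337 CPM in MGT+shScd1. Igfbp5, which binds insulin-like growth factors, had a log2 fold change of -1.57 and Mgp, the matrix Gla protein that holds back calcification, one of -1.49. Nearest to Pdgfra were Ap1ar, Slc12a2 and Samd4, with log2 fold changes between -0.08 and -0.08, none of which passed (adjusted p from 0.359 to 0.476). These are descriptions over 4 libraries.

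Pdgfa (ENSMUSG00000025856, GRCm38 chromosome 5, 138976014 to 138997370, minus strand) was the most abundant ligand gene. It had 23.1 and 25.1 FPKM in MGT+shNT and 18.9 and 18.1 FPKM in MGT+shScd1, without overlap. Pdgfa fell by 0.48 on the log2 scale (SE 0.08, adjusted p = 0.000385), a ratio of 0.718 with a 95% interval from 0.641 to 0.805. An antisense gene, 6330403L08Rik, covers 26.1% of its exonic bases and had 312 and 218 counts in MGT+shNT against 211 and 221 in MGT+shScd1. The sources used here do not say whether the counting used strand, and reads from this shared stretch are uncertain.

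Pdgfc (ENSMUSG00000028019, GRCm38 chromosome 3, 81036416 to 81214040, plus strand) moved the other way. It had 4.19 and 5.74 FPKM in MGT+shNT and 9.26 and 8.80 FPKM in MGT+shScd1, so both knockdown libraries stood above both controls. The MGT+shNT libraries differed by 1.43-fold in CPM, against 1.05-fold between the MGT+shScd1 libraries. Pdgfc rose by 0.78 on the log2 scale (SE 0.13, adjusted p = 0.000473), and the 95% interval of the fold ran from 1.42 to 2.08. With single libraries left out the log2 fold change ran from 0.54 without MGT+shNT replicate 1 to 1.04 without replicate 2, and Pdgfc was called each time. Its promoter is shown because it is the ligand gene that rose, as 250 bases before and 50 after the RefSeq start (GRCm38.p6, chr3:81036166-81036465, plus strand), with motif letters in capitals.

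Pdgfc: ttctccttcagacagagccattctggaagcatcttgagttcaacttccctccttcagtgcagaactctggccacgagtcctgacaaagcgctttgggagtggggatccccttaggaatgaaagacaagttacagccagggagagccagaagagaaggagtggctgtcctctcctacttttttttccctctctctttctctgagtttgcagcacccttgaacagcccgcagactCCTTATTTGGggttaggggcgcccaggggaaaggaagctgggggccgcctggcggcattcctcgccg

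The capitals mark a CArG box, the motif of serum response factor, whose first base lies 17 bases before the start (position -17). Of 32851 RefSeq promoter windows of the same length, 1.63% hold such a box on either strand. The match is a description of these letters and not evidence of a bound factor. Srf, the gene of that factor, had a log2 fold change of 0.01.

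The other 2 ligand genes had low levels. Pdgfd (ENSMUSG00000032006, GRCm38 chromosome 9, 6168584 to 6378850, plus strand) had 7.27 and 6.93 CPM in MGT+shNT and 7.80 and 7.63 CPM in MGT+shScd1, so the knockdown libraries lay slightly above the controls. Its log2 fold change was 0.12 (SE 0.16, adjusted p = 0.627), and with 99 to 154 counts per library the interval of the fold ran from 0.857 to 1.37. Pdgfb (ENSMUSG00000000489, GRCm38 chromosome 15, 79995874 to 80014977, minus strand) had 129 and 38 counts in the MGT+shNT libraries (1.48 and 0.60 FPKM) and 56 and 58 in MGT+shScd1 (0.70 and 0.75 FPKM). The knockdown libraries lay between the controls, and the log2 fold change of -0.65 (SE 0.33) did not pass (adjusted p = 0.163). It was -1.10 and called without MGT+shNT replicate 2 (adjusted p = 5.34e-05) and 0.15 without replicate 1 (adjusted p = 0.801), and it was called with no filter on low counts (adjusted p = 0.047).

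The 2.35-fold difference in Pdgfb CPM between the MGT+shNT libraries came together with markers of cells that make PDGF-B. Pecam1 and Cdh5, genes of endothelial junctions, had 61 and 35 counts in MGT+shNT replicate 1 and 18 and 8 in replicate 2, which are CPM ratios of 2.35 and 3.03, and the ratio of Csf1r was 3.06. Of 13 endothelial markers tested, 6 had more than 1.5 times the CPM in replicate 1, as had 9 of 21 macrophage markers, and the median ratios were 1.09 and 1.34 against 0.999 over all genes. Of all genes tested 5.92% passed that ratio, and of those under 5 CPM in MGT+shNT, a limit chosen after the values were seen, 17.3% did, against 6 of 9 endothelial and 3 of 5 macrophage markers. Some other markers of these cells with more counts than Pecam1 lay near the median of all genes. Their ratios were 0.912 for Flt1, 0.938 for Tek, 1.09 for Kdr and 1.13 for Cd68. Others with more counts did not, such as Csf1r (512 and 116 counts) and Ptprc (338 and 154 counts, ratio 1.52). The ratio was 2.33 for Mrc1 and 1.39 for Adgre1. The part of these cells in the Pdgfb difference was not tested.

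Taken as shares of the summed ligand FPKM, Pdgfa held 74.4% and 74.9% in MGT+shNT against 60.1% and 60.0% in MGT+shScd1. Pdgfc held 13.5% and 17.1% in MGT+shNT against 29.5% and 29.2% in MGT+shScd1. The ratio of Pdgfa to Pdgfc, chosen after their values were seen, went from 4.94 ± 0.798 to 2.05 ± 0.0158. Summed ligand levels were 32.3 ± 1.78 and 30.8 ± 0.856 FPKM, ranges that overlapped (exact permutation p = 0.667). With fewer receptor transcripts and like ligand sums, receptor FPKM per ligand FPKM was 3.18 ± 0.412 in MGT+shNT and 1.59 ± 0.128 in MGT+shScd1.

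**Figure D3:**
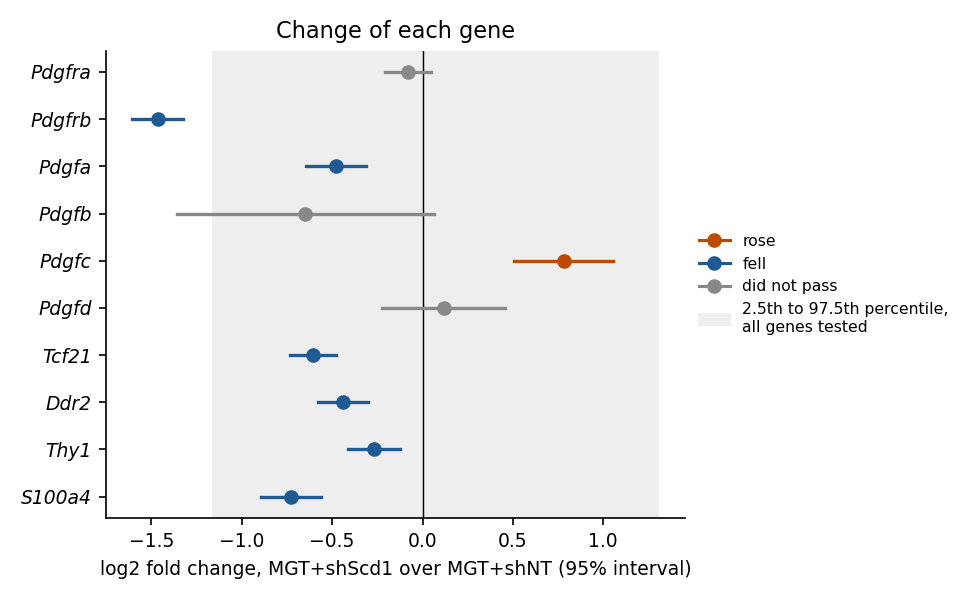
Log2 fold change of each gene, MGT+shScd1 over MGT+shNT, from edgeR's quasi-likelihood fit, with its 95% interval and colour by call; the grey band spans the middle 95% of all 16234 genes tested (-1.16 to 1.30). Pdgfrb lies outside the band at -1.46 and the other 9 genes lie inside it.

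Tcf21 (ENSMUSG00000045680, GRCm38 chromosome 10, 22817281 to 22820174, minus strand) had 127 and 118 FPKM in MGT+shNT and 88.9 and 83.2 FPKM in MGT+shScd1. Each group was narrow and they did not overlap. Tcf21 fell by 0.61 on the log2 scale (SE 0.06, adjusted p = 6.72e-06), to 0.657 of its level (95% interval 0.601 to 0.719). It was still among the most abundant transcripts, at percentile 97.3 in MGT+shScd1.

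S100a4 (ENSMUSG00000001020, GRCm38 chromosome 3, 90603771 to 90606045, plus strand) had 156 and 160 FPKM in MGT+shNT and 109 and 95.4 FPKM in MGT+shScd1. It fell by 0.73 on the log2 scale (SE 0.08, adjusted p = 1.12e-05), to 0.604 of its level (95% interval 0.539 to 0.677). A predicted gene on the same strand, Gm42674, covers 51.7% of its exonic bases and had 0 counts in all libraries. The sources used here do not say how shared reads were counted, and the level of S100a4 is less certain than its change.

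The promoters of these 2 genes are shown because they fell the most among the identity genes, in the same window around the RefSeq start, S100a4 at chr3:90603520-90603819 on the plus strand and Tcf21 at chr10:22820094-22820393 on the minus strand (GRCm38.p6). Capitals mark motif matches.
S100a4: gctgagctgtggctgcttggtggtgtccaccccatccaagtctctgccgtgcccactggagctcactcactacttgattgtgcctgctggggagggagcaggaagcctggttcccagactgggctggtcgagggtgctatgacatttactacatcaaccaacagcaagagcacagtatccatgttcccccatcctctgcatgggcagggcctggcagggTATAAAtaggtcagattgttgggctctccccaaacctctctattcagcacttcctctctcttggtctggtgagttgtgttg
Tcf21: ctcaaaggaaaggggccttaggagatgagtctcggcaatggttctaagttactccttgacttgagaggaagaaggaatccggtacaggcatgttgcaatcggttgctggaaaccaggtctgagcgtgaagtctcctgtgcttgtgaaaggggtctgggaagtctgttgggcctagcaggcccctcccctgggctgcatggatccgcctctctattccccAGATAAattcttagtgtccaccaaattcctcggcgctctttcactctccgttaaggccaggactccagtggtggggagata

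The capitals in S100a4 are a TATA box (TATAAA), whose first base is at -31 and which 13.6% of the windows hold on either strand. Those in Tcf21 are a GATA box (AGATAA), also with its first base at -31 and held by 11.2% of the windows. The other motifs searched on both strands were the MEF2 box (3.69% of windows), the T-box core AGGTGT (13.7%), the E-boxes CAGCTG (16.3%) and CATCTG (17.2%), the AP-1 site TGANTCA (7.81%), the GC box GGGCGG (35.7%) and the CArG box. None of these others was in either window. In the Pdgfra window a T-box core began at -213 and a CATCTG E-box at -182, and the Pdgfd window held a GATA box at -223 and a TATA box at -160. Pdgfa had GC boxes at -60 from its start 1 and at -93 and -86 from its start 2. The Ddr2 window held a TATA box at -185. No window was searched for Pdgfrb, Pdgfb or Thy1. Motif matches do not show binding, and a window without a match says nothing about a factor.

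Ddr2 (ENSMUSG00000026674, GRCm38 chromosome 1, 169972307 to 170110762, minus strand) had 29.6 and 25.9 FPKM in MGT+shNT and 21.1 and 22.6 FPKM in MGT+shScd1. The groups did not overlap, and Ddr2 fell by 0.44 on the log2 scale (SE 0.06, adjusted p = 0.000212; ratio 0.737, 95% interval 0.669 to 0.812). Its relative Ddr1, the discoidin receptor known from epithelial cells, had 65.9 and 64.5 FPKM in MGT+shNT and 74.8 and 72.8 FPKM in MGT+shScd1 (log2 fold change 0.08, adjusted p = 0.309). The FPKM ratio of Ddr2 to Ddr1 was 0.426 ± 0.0341 and 0.296 ± 0.0204. Of the collagens that the discoidin receptors bind, Col1a2 fell by 1.03, Col3a1 by 0.97, Col10a1 by 0.60, Col1a1 by 0.50 and Col5a1 by 0.25. The list of discoidin receptors and collagens thus had 5 falls and 0 rises among 6 genes tested (median -0.55). By comparison, 13.1% of all genes tested rose and 16.3% fell. Without MGT+shScd1 replicate 2 the calls of Col5a1 and Col10a1 were lost, and the log2 fold change of Col10a1 was -0.40. Col10a1 was also lost on the FPKM scales (adjusted p = 0.0984 and 0.0955).

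Thy1 (ENSMUSG00000032011, GRCm38 chromosome 9, 44043384 to 44048579, plus strand) changed the least of the identity genes. It had 135 and 117 FPKM in MGT+shNT and 116 and 108 FPKM in MGT+shScd1, so the lowest control and the highest knockdown library nearly met. Thy1 fell by 0.27 on the log2 scale (SE 0.07, adjusted p = 0.00814; ratio 0.831, 95% interval 0.752 to 0.917). This call was lost with library totals (adjusted p = 0.114), on both FPKM scales (adjusted p = 0.205 for each) and without MGT+shScd1 replicate 2 (adjusted p = 0.15). Thy1 also marks T cells and neurons. Markers of lymphocytes summed to between 3.95 and 6.98 CPM per library, with Cd3g and Nkg7 at 0 counts in all libraries, and Cd3e had 3 counts in MGT+shNT replicate 1 and 0 elsewhere. Il7r, the interleukin-7 receptor gene and the only called gene of that list, fell from 102 and 47 counts to 36 and 43 (log2 fold change -1.04, adjusted p = 0.0159), and the list had 0 falls without MGT+shNT replicate 1 or either MGT+shScd1 replicate. The part of lymphocytes in the Thy1 values was not tested.

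**Figure D4:**
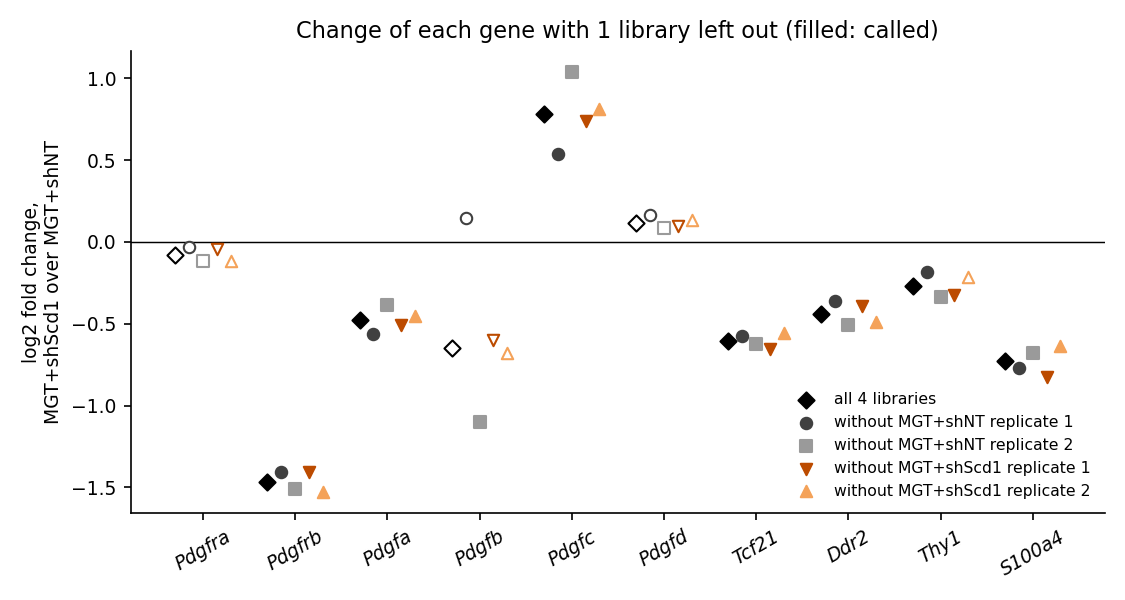
Log2 fold change of each gene with all 4 libraries and with each library left out in turn, filled where the adjusted p was below 0.05. Pdgfb runs from -1.10 to 0.15, Thy1 is not called without MGT+shScd1 replicate 2, and the other called genes keep their side.

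S100a4 was compared with other genes of its family. Of 8 tested, 0 rose and 1 fell, S100a16 (log2 fold change -0.31, adjusted p = 0.0203). Beside these counts, 13.1% of all genes tested rose and 16.3% fell. The list as drawn up and plotted has 9 tested genes, since it also holds S100pbp, which encodes a binding protein of the family and not a member (log2 fold change -0.08, adjusted p = 0.496). Over these 9 there were 3 falls without MGT+shNT replicate 1 and 0 without either MGT+shScd1 replicate. S100a16 was also lost with library totals (adjusted p = 0.106) and with the DESeq2 Wald test (adjusted p = 0.102). S100a6, 6.8 kb from S100a4, had 145 ± 2.06 and 139 ± 9.71 FPKM (log2 fold change -0.16, adjusted p = 0.0799, and called without MGT+shNT replicate 1 at an adjusted p of 0.0194). The annexin partners S100a10 (-0.11, adjusted p = 0.25) and S100a11 (0.01, adjusted p = 0.909) did not pass. The FPKM ratio of S100a4 to S100a6 within a library was 1.09 and 1.10 in MGT+shNT against 0.748 and 0.725 in MGT+shScd1.

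The enzymes that process PDGFs and the receptors' partners at the membrane moved in both directions. There were 2 rises and 4 falls among 11 genes tested (median -0.11). Beside the counts of this list and those below, 13.1% of all genes tested rose and 16.3% fell. Furin, the convertase that cleaves PDGF proforms, rose by 0.44 (20.0 ± 0.191 to 29.1 ± 0.106 FPKM), and Plat, the tissue plasminogen activator that activates PDGF-C, rose by 0.44 (8.95 ± 0.269 to 12.9 ± 0.106 FPKM). Plau, the urokinase that activates PDGF-D, did not pass (-0.11, adjusted p = 0.445). The caveolar protein gene Cav1 fell by 1.84 (32.2 ± 2.60 to 9.64 ± 0.601 FPKM), the integrin gene Itgb3 by 0.63, the co-receptor gene Nrp1 by 0.51 and Sparc, whose protein binds PDGF, by 0.32. Neither Lrp1, an endocytic receptor that binds the beta receptor (-0.19, adjusted p = 0.0563), nor Cspg4, the NG2 proteoglycan (-0.02, adjusted p = 0.903), passed. Lrp1 was called without MGT+shNT replicate 2 (adjusted p = 2.52e-06), with limma-voom (adjusted p = 0.0253) and with no filter on low counts (adjusted p = 0.00598).

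Of 32 genes that relay receptor signals inside the cell, 3 rose, 10 fell and 19 did not pass (median -0.10). Rasa1, the Ras GTPase-activating protein that docks on the beta receptor, fell by 0.77 (14.6 ± 0.629 to 9.11 ± 0.453 FPKM). Mapk3, the ERK1 kinase gene, fell by 0.66 (41.6 ± 0.417 to 28.1 ± 0.438 FPKM), and the adaptor gene Gab1 by 0.45. Among the rises, the kinase subunit gene Pik3r2 rose by 0.50 and the Src-family kinase gene Yes1 by 0.40. Without MGT+shScd1 replicates 1 and 2 the falls numbered 3 and 4, and without MGT+shNT replicate 1 the rises numbered 6. With library totals 6 rose and 3 fell.

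Among 18 negative regulators of receptor signalling, 4 rose, 6 fell and 8 did not pass (median -0.05). Dusp5, a phosphatase of ERK kinases, fell by 1.08 (6.79 ± 0.530 to 3.43 ± 0.361 FPKM) and the cytokine signalling suppressor Socs3 by 1.07 (6.99 ± 0.255 to 3.56 ± 0.0990 FPKM). Ptprj, a receptor phosphatase that acts on the beta receptor, rose by 0.50, and Dusp6, another ERK phosphatase, by 0.32, though Dusp6 was lost without MGT+shScd1 replicate 2 (adjusted p = 0.125). The counts without MGT+shScd1 replicates 1 and 2 were 2 and 1 rises and 4 and 3 falls.

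Immediate early genes, which growth factors induce within minutes, showed 3 rises, 2 falls and 15 genes that did not pass among 20 (median -0.03). Over all genes tested, 13.1% rose and 16.3% fell, so this list did not stand out by its calls. Myc rose by 0.60 (7.06 ± 0.424 to 11.5 ± 0.0636 FPKM), Jun by 0.47 and Ccn2 by 0.34, and Klf4 fell by 0.65 and Klf2 by 0.52. Klf2 was lost under 9 of 14 alternatives, and Jun without MGT+shScd1 replicate 1 (adjusted p = 0.0948). Ccn2 was lost without MGT+shScd1 replicate 1 (adjusted p = 0.182) or 2 (adjusted p = 0.0754) and with the DESeq2 Wald test (adjusted p = 0.194). These genes differed between the MGT+shNT libraries, with summed levels of 2893 and 4152 CPM, and the MGT+shScd1 libraries, at 3905 and 3857 CPM, lay between. There were 9 rises and 2 falls when MGT+shNT replicate 2 was left out, and 3 rises and 9 falls when replicate 1 was. Leaving out MGT+shScd1 replicate 1 left 1 rise, and leaving out replicate 2 left 1 fall.

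In the related family of vascular growth factors and class III receptor kinases, 4 of 10 rose, 3 fell and 3 did not pass (median -0.08). The placental growth factor gene Pgf rose by 1.96 (0.850 ± 0.0566 to 3.51 ± 0.0849 FPKM), the receptor genes Flt4 by 0.66 and Flt1 by 0.64, and Vegfa by 0.28. Vegfc fell by 0.60 (13.1 ± 1.13 to 9.25 ± 0.255 FPKM). Leaving out either MGT+shScd1 library kept 4 rises and left 1 fall.

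**Figure D5:**
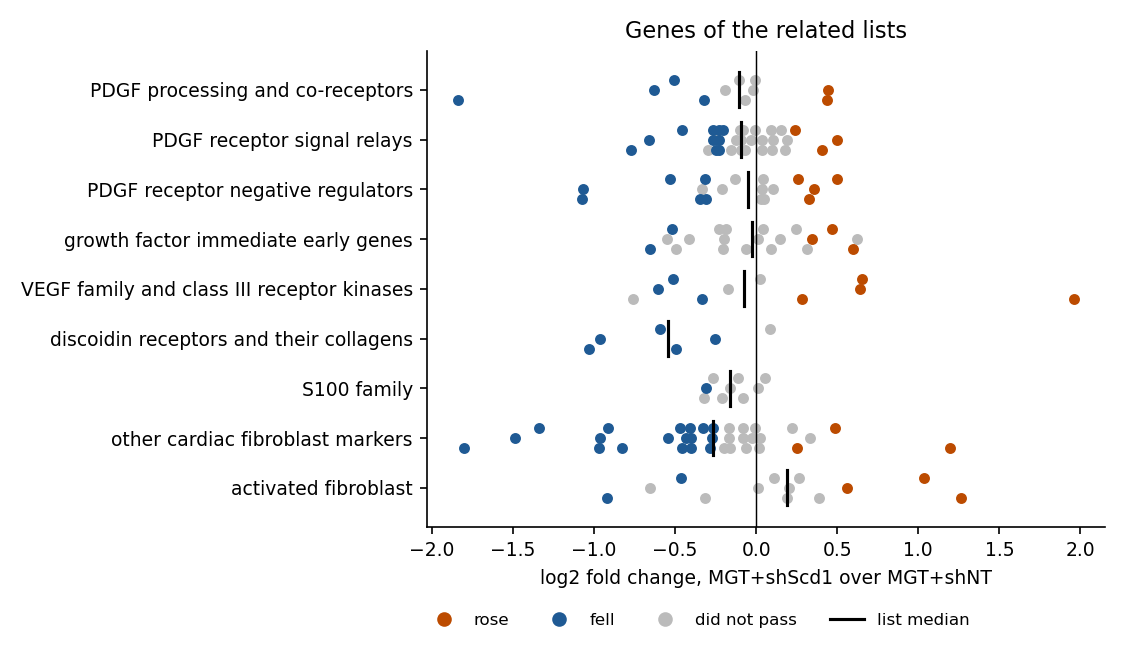
Log2 fold change, MGT+shScd1 over MGT+shNT, of every tested gene in 9 lists related to the PDGF system and to fibroblasts, coloured by call, with a black line at each list's median. Medians lie at -0.55 for the discoidin receptors and collagens, -0.27 for other cardiac fibroblast markers and 0.19 for activated fibroblast genes, and between -0.16 and -0.03 for the remaining lists.

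Set beside the identity genes, 34 other cardiac fibroblast markers were tested, of which 3 rose, 18 fell and 13 did not pass (median -0.27). The matrix protein gene Dpt fell by 1.80 (64.7 ± 1.41 to 19.8 ± 2.60 FPKM), Mgp by 1.49 and Fbln1 by 1.34, and the transcription factor gene Osr1 rose by 1.20 (3.59 ± 0.276 to 8.82 ± 0.0778 FPKM), Fbln2 by 0.49 and Mmp2 by 0.25. Mmp2 was lost without either MGT+shScd1 replicate (adjusted p = 0.0752 and 0.0862). Dcn, which encodes the proteoglycan decorin, did not pass (-0.20, adjusted p = 0.117), and was called at -0.36 without MGT+shNT replicate 2 (adjusted p = 2.45e-07), with no filter on low counts (adjusted p = 0.0164) and with the replicate block (adjusted p = 0.0406). Falls numbered 11 without MGT+shScd1 replicate 2, 12 with library totals and 9 on each FPKM scale.

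Genes of activated fibroblasts did not share that direction. Of 13 tested, 3 rose and 2 fell (median 0.19): Ltbp2 rose by 1.26, Postn by 1.03 and Tnc by 0.56, while Itga11 fell by 0.92 and Cdh11 by 0.47. Without MGT+shNT replicate 2 the rises numbered 8, and without replicate 1 the falls numbered 4.

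Since Pdgfrb also marks mural cells, their markers were read beside it. There were 5 rises and 3 falls among 13 genes tested (median -0.16), and their summed level was 1307 and 1227 CPM in MGT+shNT and 1935 and 1924 CPM in MGT+shScd1. Des, the gene of the muscle protein desmin, and Mcam made up most of this sum, and without them it was 279 and 289 CPM in MGT+shNT and 258 and 269 CPM in MGT+shScd1. Des rose from 921 and 822 CPM to 1406 and 1391 CPM. Rgs5, a defining pericyte gene, had 1.28 and 1.18 FPKM in MGT+shNT and 1.04 and 1.32 FPKM in MGT+shScd1 (log2 fold change -0.16, adjusted p = 0.586). Kcnj8, another, had 0.88, 0.52, 0.43 and 0.40 FPKM (adjusted p = 0.119, called without MGT+shNT replicate 2 at 0.0201). Mcam rose by 1.26, and Anpep fell by 0.95 and Rgs4 by 0.87. The rises numbered 3 without either MGT+shNT replicate and 2 without either MGT+shScd1 replicate.

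Macrophages express S100a4, and their markers were lower too. There were 16 falls and 1 rise among 21 genes tested (median -1.35), and they summed to 959 and 862 CPM in MGT+shNT and 264 and 262 CPM in MGT+shScd1. The log2 fold change was -2.20 for the lysozyme gene Lyz2, -2.45 for Ms4a7, -2.47 for Cd68 and -1.95 for Ptprc, the gene of the leukocyte surface protein CD45. The falls numbered 10 without MGT+shScd1 replicate 1 and 9 on each FPKM scale, and the rise, C1qb, was lost without MGT+shNT replicate 2 or either MGT+shScd1 replicate (adjusted p from 0.11 to 0.224). The part of these cells in the falls of S100a4 and the other identity genes was not tested. Epicardial and mesothelial markers, from the lineage where Tcf21 first acts, gave 2 rises and 6 falls among 15 (median -0.36) and sums of 920, 884, 842 and 872 CPM in the 4 libraries. Among them Msln fell by 0.73, Tbx18 rose by 0.19, and Wt1 did not pass (-0.29, adjusted p = 0.075). The Tbx18 call was lost without any 1 of 3 libraries (adjusted p from 0.0841 to 0.234), the falls numbered 3 without MGT+shScd1 replicate 1, and 1 rise was left without either MGT+shScd1 replicate.

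Endothelial markers gave 1 rise and 3 falls among 13 (2 rises without MGT+shNT replicate 1, and 1 fall without MGT+shScd1 replicate 2), and summed to 550 to 613 CPM, of which Eng, a gene also on the fibroblast list, held 402 to 501 CPM. Vwf, the von Willebrand factor gene, had 69 and 25 counts in MGT+shNT and 11 and 8 counts in MGT+shScd1 (log2 fold change -2.40, adjusted p = 0.00131). The endothelial gene that rose was Flt1 (log2 fold change 0.64). Pecam1 (-0.30, adjusted p = 0.612) and Cdh5 (-0.20, adjusted p = 0.797) were among the 9 that did not pass. Neural and Schwann cell markers gave 3 rises and 1 fall among 7, at 70.9 to 102 CPM, with 1 rise without MGT+shScd1 replicate 1 and 0 falls without MGT+shNT replicate 1 or either MGT+shScd1 replicate. Cardiomyocyte genes gave 10 rises and 5 falls among 21 (median 0.26; 2 falls without MGT+shScd1 replicate 2), and the log2 fold change was 2.55 for Csrp3, 2.44 for Tnnc1 and 1.31 for Myh6. Among the falls it was -1.35 for Nppa, the atrial natriuretic peptide gene, -0.36 for Tnnt2 and -0.31 for Myl7. The Tnnt2 and Myl7 calls were lost in both fits to log2 FPKM (adjusted p between 0.0531 and 0.151), and Myl7 also without MGT+shScd1 replicate 2 (adjusted p = 0.0721).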

How the data were processed

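RNA from 4 libraries was sequenced. Columns of the knockdown libraries carry an extra number that the labels do not explain, and were matched to replicates by their last digit. The authors deposited raw read counts per gene and FPKM. The FPKM equalled count per exonic length and total count for 100% of values within 0.005, so they carry no TMM factors. Per the submitters' processing notes, Trimmomatic 0.36, Subread 1.5.1, featureCounts, SAMtools and build mm10 were used; the sources used here give no roles, annotation, strand setting or multi-mapping rule. The exonic length (entered as a score) stands in the table as deposited by the authors. Of 52034 gene identifiers on the same chromosome in GENCODE M21 (GRCm38), 2.78% had the deposited start and 96.8% the deposited width, so positions come from M21. Promoters come from RefSeq (GRCm38.p6).

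Counts were tested with edgeR 4.0.16 (R 4.3.3, quasi-likelihood, TMM, group as the only term, two-sided) after filterByExpr (minimum count 10, total 15), with Benjamini-Hochberg adjustment over 16234 genes. The same script was tested on simulated data, where calls on unchanged genes exceeded the nominal rate and small changes were often missed, so weak calls are less certain. Standard errors are the log2 fold change over the root of F. Alternatives used DESeq2 1.42.0 and limma 3.58.1, and log2(FPKM + 1) or log2(FPKM + 0.1). Total counts were 15135227 to 20894972. A chi-square of counts within each group lay above sampling noise, at 43.6 per degree of freedom in MGT+shNT and 2.82 in MGT+shScd1. Without the 10 genes that added most to it, it was 6.01 in MGT+shNT and 2.63 in MGT+shScd1. Nothing in the labels ties the libraries to different cultures or animals, and p-values rest on how far these 4 libraries differ, a spread that may be technical.

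The 10 genes and 16 gene lists were chosen with earlier results of these data known. Named genes were the 10, Scd1, fixed partners and markers, and up to 3 called genes per list and direction with the largest change, at least 1 FPKM and no overlap between groups. A selection of them is printed. Some other genes, such as Vwf, Des, Il7r, Sparc, Col5a1, Kdr, Srf and S100pbp, are printed outside this rule. These were not followed singly under the alternatives.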

Additional observations from a re-analysis of the deposited data

How the results depend on the processing

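Over all genes, 2122 were called higher and 2641 lower. With the DESeq2 Wald test 1365 were higher (1913 lower), and on log2(FPKM + 1) and log2(FPKM + 0.1) 1249 and 1266 were lower (2256 and 2260 higher); the cause was not tested. Leaving out 1 library gave 860 to 2386 higher and 1357 to 2945 lower. Of the 10 genes, 1 was higher under every alternative run and 5 to 7 were lower. The log2 ratio difference of Pdgfra to Pdgfrb ran from 1.36 to 1.41 with 1 library left out, and was 1.39 from counts and 1.36 on log2(FPKM + 1).

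With the replicate number as a block, 2253 genes were higher and 2737 lower, and among the 10 genes the calls were the same 1 and 6 in number. Deviations of same-numbered libraries from their group means had a correlation of -0.02 over genes. With only 2 pairs, this check cannot show whether the numbers pair the libraries. Csf1r (adjusted p = 0.000711) and Dcn were called with the block. Of 1386 values of 99 named genes under the alternatives, 1263 kept direction and call, 93 lost the call, 13 gained it and 17 changed sign, all 17 in genes not called. These were Pdgfra with library totals (0.015) and on log2(FPKM + 1) and log2(FPKM + 0.1) (0.017 and 0.018), Cdh5 on log2(FPKM + 0.1) (0.043), and Cspg4 with library totals (0.079), upper quartile factors (0.037) and the FPKM scales (0.068 and 0.078). With 1 library left out, values ran from -1.10 to 0.15 for Pdgfb, -1.31 to 0.31 for Csf1r, -0.74 to 0.50 for Pecam1, -0.73 to 0.87 for Cdh5, -0.35 to 0.0010 for Rgs5, -0.36 to 0.0016 for Dcn, -0.15 to 0.12 for Cspg4 and -0.0073 to 0.037 for S100a11. MGT+shNT replicate 1 gave the sign change of Pdgfb, Csf1r, Pecam1, Cdh5, Dcn and S100a11, MGT+shScd1 replicate 1 that of Rgs5, and MGT+shNT replicate 2 or MGT+shScd1 replicate 1 that of Cspg4. Pdgfb and Pdgfd had 38 to 154 counts per library.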
